A study of Mus musculus with 18 samples.

Results

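Open chromatin was described at 36 mouse genes of the interferon response and of antigen presentation, in blood stem cells (HSC) and in a population that the labels call HPC, the progenitors downstream of them. The genes were 4 interferon receptor subunits, 8 interferon regulatory factors (IRF), 15 antiviral effectors and regulators, 6 genes of class I and 3 of class II antigen presentation. A peak counted toward a member when its summit lay in the gene body or within 50 kb of it, and each such summit went to the nearest member. The rule uses gene positions and no measured value.

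The assay was ATAC-seq, in which the transposase Tn5 cuts accessible DNA, and the 18 samples made up 6 groups. Mice of 8 weeks gave 2 samples of wild-type HSC, 2 of knockout HSC, 4 of wild-type HPC and 2 of knockout HPC. The knockout is labelled Kmt2c f/f; Vav-Cre, an allele of the histone methyltransferase gene Kmt2c deleted by a Cre recombinase that the Vav promoter drives in blood cells in general. At 16 weeks there were 4 samples of wild-type HSC from mice given PBS vehicle and 4 from wild-type mice given 5-fluorouracil, a cytotoxic drug that kills dividing blood cells. The drug was given at 150 mg/kg in 3 rounds at intervals of 3 weeks, and the vehicle on the same schedule. Neither the deleted part of Kmt2c nor the markers used to sort the cells are given in the sources used here, and a peak list does not check the deletion. The title of the series names chemotherapy and the properties of activated and quiescent stem cells as its question.

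Interferons are secreted proteins that bind receptors on the cell surface and signal through Janus kinases to transcription factors. These bind the interferon-stimulated response element (ISRE) or the gamma-activated site (GAS), and the genes so induced restrict viruses or load peptides on MHC molecules. In bone marrow, interferons are known to rouse dormant stem cells, and stem cells are known to express part of the antiviral set without infection.

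Each group was deposited as 1 peak list for all its samples, so no value per sample, no replicate spread and no test could be had, and read depth was unknown. At 8 weeks the 36 members took 208 of 40073 regions (wild-type HSC), 243 of 48620 (knockout HSC), 322 of 65832 (wild-type HPC) and 276 of 52840 (knockout HPC). At 16 weeks they took 363 of 80100 (vehicle HSC) and 342 of 71363 (5-fluorouracil HSC). These were between 0.453% and 0.522% of the regions of a list. A list grows with depth and with the number of samples pooled, so a missing region may be one below the threshold of its list. Fold enrichment, the authors' ratio of the signal at a summit to the local background, orders regions within 1 list and is no measure of change between lists. In bulk samples, fewer cells with an open site and less opening in each cell cannot be told apart. Throughout, 6 values in a row stand in the order wild-type HSC, knockout HSC, wild-type HPC, knockout HPC, vehicle HSC and 5-fluorouracil HSC.

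Promoter sequences from 250 bases before to 50 after the start were at hand for 27 members, from RefSeq on GRCm38.p6. The ISRE core GAAANNGAAA, searched on both strands, stood in 10 of the 27 (37.0%), against 3.94% of 17492 protein-coding genes and 3.44% of all 32851 promoters. It was found in 8 of 11 antiviral genes (Bst2, Ifih1, Ifit1, Ifit3, Isg15, Oas1a, Oas3 and Rsad2), in 1 of 8 IRF genes (Irf2), in 1 of 4 class I genes (B2m) and in 0 of 4 receptors. The GAS core TTCNNNGAA stood in 9 of 27 (33.3%), against 8.92% of protein-coding genes: Ifnar1, Ifnar2, Irf1, Irf2, Irf8, Bst2, Ifit2, Oas1a and Psmb8. A composite of an ETS and an IRF core, GGAANNGAAA, was in Irf2 alone (3.70%, against 2.98%), where it overlaps the ISRE core, and the GAS core of Bst2 likewise overlaps an ISRE core. A match describes letters and not a bound site.

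The promoters on which the results below turn are printed 5′ to 3′ along the gene, with ISRE and GAS cores in capitals. They are Ifit1 (chr19:34640639-34640938, plus strand), the strong antiviral start shared by all lists; Ifit3 (chr19:34583279-34583578, plus strand) and Oas1a (chr5:120907476-120907775, minus strand), whose starts held no region in either HPC list; Isg15 (chr4:156200769-156201068, minus strand), a weak start with 3 overlapping ISRE cores; B2m (chr2:122147437-122147736, plus strand) from class I; and Irf1 (chr11:53769764-53770063, plus strand), with a GAS core.
Ifit1: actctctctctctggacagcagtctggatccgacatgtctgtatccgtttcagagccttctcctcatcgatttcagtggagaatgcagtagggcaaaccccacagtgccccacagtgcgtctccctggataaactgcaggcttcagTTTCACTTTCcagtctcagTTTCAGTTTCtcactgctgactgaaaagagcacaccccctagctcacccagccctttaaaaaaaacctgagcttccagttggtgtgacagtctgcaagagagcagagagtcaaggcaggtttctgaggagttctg
Ifit3: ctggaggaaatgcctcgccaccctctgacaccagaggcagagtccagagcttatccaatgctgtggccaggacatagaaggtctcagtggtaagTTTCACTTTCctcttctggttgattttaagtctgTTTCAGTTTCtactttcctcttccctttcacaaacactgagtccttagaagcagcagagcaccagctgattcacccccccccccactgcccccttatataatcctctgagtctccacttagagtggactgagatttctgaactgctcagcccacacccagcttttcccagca
Oas1a: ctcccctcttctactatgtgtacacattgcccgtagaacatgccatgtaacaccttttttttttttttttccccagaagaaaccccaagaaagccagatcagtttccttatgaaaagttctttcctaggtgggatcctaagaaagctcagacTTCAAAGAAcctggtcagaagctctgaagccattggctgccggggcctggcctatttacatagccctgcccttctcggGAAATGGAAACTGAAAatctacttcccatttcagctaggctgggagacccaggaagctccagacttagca
Isg15: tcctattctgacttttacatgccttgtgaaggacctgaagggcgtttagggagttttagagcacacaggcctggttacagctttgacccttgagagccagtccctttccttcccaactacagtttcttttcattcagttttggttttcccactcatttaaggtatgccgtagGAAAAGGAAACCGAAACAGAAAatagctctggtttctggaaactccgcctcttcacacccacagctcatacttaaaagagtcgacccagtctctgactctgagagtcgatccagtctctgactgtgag
B2m: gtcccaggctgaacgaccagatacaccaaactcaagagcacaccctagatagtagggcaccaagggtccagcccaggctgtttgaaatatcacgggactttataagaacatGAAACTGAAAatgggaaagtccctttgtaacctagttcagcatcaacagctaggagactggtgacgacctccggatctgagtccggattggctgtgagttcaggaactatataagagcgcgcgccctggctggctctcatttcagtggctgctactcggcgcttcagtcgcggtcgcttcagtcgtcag
Irf1: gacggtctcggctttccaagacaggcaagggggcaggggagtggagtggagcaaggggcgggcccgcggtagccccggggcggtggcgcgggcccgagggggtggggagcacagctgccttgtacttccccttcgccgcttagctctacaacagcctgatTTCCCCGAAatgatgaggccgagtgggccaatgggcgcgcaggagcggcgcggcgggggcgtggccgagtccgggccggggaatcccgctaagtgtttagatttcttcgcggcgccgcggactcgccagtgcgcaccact

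The distance from the nearest peak summit to a core differed between promoters. In Ifit1, which encodes a protein that binds viral RNA, the ISRE core TTTCAGTTTC 85 bp upstream of the start was 4 to 9 bp from the nearest summit in all 6 lists. In B2m, the light chain of class I molecules, the core GAAACTGAAA was 10 to 16 bp from it, and in Irf1 the GAS core TTCCCCGAA was 17 to 32 bp from it. The 3 overlapping cores of Isg15 lay between 12 and 44 bp from a summit. In Oas1a the 2 ISRE cores, 20 and 14 bp upstream of the start, lay 37 to 59 bp from the summit in the 4 HSC lists, and the GAS core lay 26 to 42 bp from it. Other cores lay farther from a summit. The GAS core of Ifnar2 was 194 to 243 bp from it, that of Ifit2 86 to 183 bp and that of Psmb8 28 to 232 bp. The ISRE core of Rsad2 was 88 to 113 bp from it, and the 2 of Ifit3 lay 38 to 95 bp away. Distances at promoters in general were not computed, so nearness to a core is not set apart from nearness to the start. Summits are positions in pooled lists, and these distances have no error.

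Most members had an accessible region within 1 kb of the gene start in every list. In wild-type HSC this held for 31 of 36 members, against 52.2% of 21887 protein-coding genes. In knockout HSC it held for 34, against 55.7%. Both HPC lists had 32, against 59.7% in wild-type HPC and 54.9% in knockout HPC. Vehicle HSC and 5-fluorouracil HSC had 35 each, against 65.5% and 63.6%. Over all 6 lists 30 members held a start region (83.3%), and 48.1% of protein-coding genes did. These 30 were 4 of 4 receptors, 7 of 8 IRF genes, 12 of 15 antiviral genes, 6 of 6 class I genes and 1 of 3 class II genes.

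**Figure D1:**
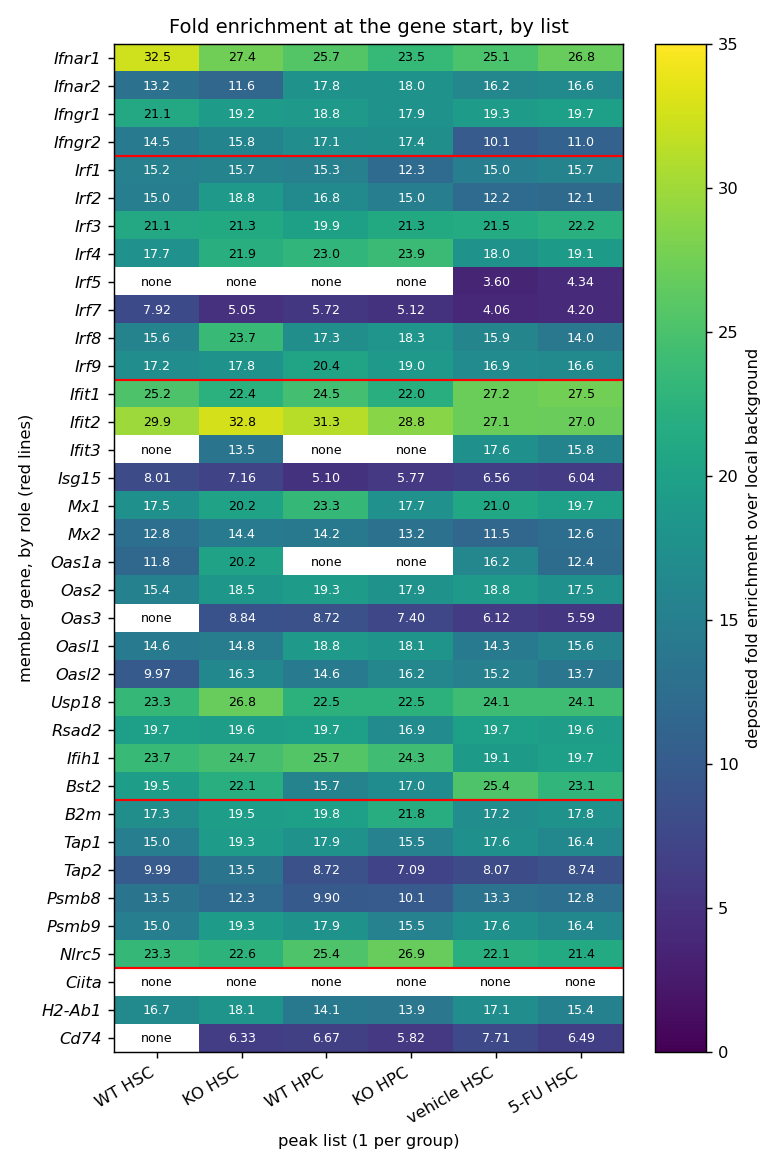
The heat map gives the deposited fold enrichment of the region within 1 kb of each gene start, with the 36 members as rows in order of role and the 6 lists as columns (WT, wild type; KO, knockout; 5-FU, 5-fluorouracil). White cells marked "none" had no region, and a reader should see that they fall on 6 members: Irf5, Ifit3, Oas1a, Oas3, Ciita and Cd74.

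The starts of 3 antiviral genes were not open in every list. Ifit3, whose product acts with Ifit1 and Ifit2, had a start region in knockout HSC (fold enrichment 13.5), vehicle HSC (17.6) and 5-fluorouracil HSC (15.8). It had none in wild-type HSC, wild-type HPC or knockout HPC, where the nearest region was 13.0, 13.0 and 13.1 kb away. Oas1a, an oligoadenylate synthetase that activates RNase L on sensing double-stranded RNA, had a start region at 11.8 and 20.2 in the 8-week HSC lists and at 16.2 and 12.4 in the 16-week ones. It had none in either HPC list, where the nearest region was 16.1 kb away in wild-type HPC and 57.6 kb away in knockout HPC. The Oas1a start was thus present in every HSC list and absent from both HPC lists. By the deposited −log10 p, the Ifit3 start in knockout HSC was weak, at percentile 21.8 of its list. The Oas1a start in wild-type HSC was likewise weak, at 14.9. Oas3, of the same family, lacked a start region in wild-type HSC alone, with one 1.63 kb away, and had 8.84, 8.72, 7.40, 6.12 and 5.59 in the other lists. Ifit and Oas genes have near-identical neighbours, so the reads of these starts may be split or lost among copies.

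Irf5, a factor that acts downstream of Toll-like receptors, had a start region in vehicle HSC (3.60) and 5-fluorouracil HSC (4.34) only, both weak within their lists. The other lists had a region 2.02 to 2.47 kb from that start. Ciita, the transactivator of class II genes, had no region within 1 kb of either gene end in any list, and the nearest lay 3.57 to 5.85 kb away. Cd74, the invariant chain that guards the class II groove, lacked one in wild-type HSC, where the nearest was 1.86 kb away, and had 6.33, 6.67, 5.82, 7.71 and 6.49 in the other lists. The strand of Ciita and Cd74 was not given in the gene table, so both ends stood for the start.

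Starts open in both 16-week HSC lists and in neither HPC list were Irf5, Ifit3 and Oas1a, 3 of 36 members (8.33%), against 4.14% of protein-coding genes. The HPC lists come from 8-week mice and are shorter, so cell type, age and list length cannot be told apart in this pattern. Irf5 also lacked a start region in both 8-week HSC lists, and Ifit3 lacked one in wild-type HSC. With the 8-week HSC lists also required, Oas1a remained (2.78%, against 0.411%), with a weak start in wild-type HSC. The reverse, a start in both HPC lists and in no HSC list, was found for 0 of 36 members, against 0.206% of protein-coding genes. With so few members these shares are descriptions, and the patterns were chosen after the values were seen.

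Of the 5 strongest starts by fold enrichment 3 belonged to antiviral genes, which made up 12 of the 30 starts open in all lists. Ranked by fold enrichment within each list and averaged over the 6 lists, Ifit2 came first at percentile 97.0, followed by Ifnar1 at 93.1, Ifit1 at 89.3, Usp18 at 88.5 and Nlrc5 at 88.0. By −log10 p the order differed: the Ifngr1 start stood at percentiles 91.7 to 98.8 of the lists and the Ifit1 start at 69.3 to 91.6. Ifit2 had fold enrichments of 29.9, 32.8, 31.3, 28.8, 27.1 and 27.0, and Ifit1 had 25.2, 22.4, 24.5, 22.0, 27.2 and 27.5. Usp18, which removes the modifier Isg15 from proteins and dampens type I receptor signalling, had 23.3, 26.8, 22.5, 22.5, 24.1 and 24.1. Starts with an ISRE core ranked both high and low. Isg15, the ubiquitin-like modifier, carried 3 overlapping cores and averaged percentile 11.9, while Ifit2 carried none in its window. The Isg15 start had 8.01, 7.16, 5.10, 5.77, 6.56 and 6.04. Irf7, the factor that amplifies type I interferon production, was the lowest of the 30 starts open in all lists, at percentile 5.17, with 7.92, 5.05, 5.72, 5.12, 4.06 and 4.20.

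All 4 receptor subunits were open at the start in all lists. Ifnar1, a subunit of the type I receptor, had fold enrichments of 32.5, 27.4, 25.7, 23.5, 25.1 and 26.8, and its partner Ifnar2 had 13.2, 11.6, 17.8, 18.0, 16.2 and 16.6. Ifngr1, the ligand-binding subunit of the receptor for interferon gamma, had 21.1, 19.2, 18.8, 17.9, 19.3 and 19.7, and Ifngr2 had 14.5, 15.8, 17.1, 17.4, 10.1 and 11.0. Ifnar1 stood above the other receptor subunits in each list. The 48 sites near them (regions of all lists merged where they overlap) included 17 found in all 6 lists (35.4%), near the 32.2% of sites genome-wide. Ifnar1 held 14 sites, of which 6, 7, 9, 7, 12 and 10 were in the 6 lists, Ifnar2 held 10 sites (6, 6, 9, 7, 8 and 9) and Ifngr2 held 9 (3, 4, 6, 6, 7 and 5).

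A site 35.8 kb upstream of Ifnar2 (chr16:91336590-91337341) was in all 4 HSC lists, at 16.4, 19.4, 21.1 and 21.1, and in neither HPC list. On the other side, a site 40.5 kb downstream of the Ifnar2 start, inside the neighbouring gene Il10rb, had 23.9 in wild-type HPC and 26.5 in knockout HPC. It had no region in the 8-week HSC lists and 10.4 and 11.8 in the 16-week HSC lists. At Ifngr1, 2 of 15 sites were in all HSC lists and no HPC list: one 9.52 kb upstream (8.92 and 9.56 in the 8-week lists) and one 66.7 kb downstream, nearer to Il22ra2 (13.7, 18.3, 20.4 and 17.6). A further 3 were in both HPC lists and no HSC list, 8.73 kb upstream and 2.78 and 4.90 kb downstream, with fold enrichments from 4.05 to 9.14. The Ifngr1 counts by list were 5, 6, 10, 9, 11 and 10. The HSC-only and HPC-only sites upstream of Ifngr1 lay next to each other, while the start and the sites 7.69 kb upstream and 21.4 kb downstream were in every list.

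The IRF genes held 124 sites, 54 of them in all 6 lists (43.5%). Irf2, which competes with Irf1 for the same element, held the most of any member, 30 sites, of which 11, 15, 21, 17, 28 and 24 were in the 6 lists. Irf8, a factor needed for monocytes and dendritic cells, held 18 (9, 11, 16, 14, 13 and 13), Irf3, which is activated by sensors of viral nucleic acid, held 16 (9, 8, 13, 9, 11 and 11), and Irf7 held 14 (8, 9, 12, 10, 13 and 13). The start regions of Irf2 had 15.0, 18.8, 16.8, 15.0, 12.2 and 12.1, those of Irf8 had 15.6, 23.7, 17.3, 18.3, 15.9 and 14.0, and those of Irf3 had 21.1, 21.3, 19.9, 21.3, 21.5 and 22.2. The starts of Irf1, Irf4 and Irf9 were also open in all lists, between 12.3 and 15.7 for Irf1, 17.7 and 23.9 for Irf4, and 16.6 and 20.4 for Irf9. Irf9 is a DNA-binding subunit of the factor that recognises the ISRE.

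At Irf4, which directs lymphocyte and plasma cell programmes, a site just past the gene end (chr13:30766715-30767492), 79 bp from the gene body, had 23.5 in wild-type HPC and 23.6 in knockout HPC. No HSC list had a region there. The strongest site near Irf4, 37.1 kb from its start, was in every list, at 32.6, 34.7, 31.8, 32.6, 31.0 and 29.2. At Irf8, 3 sites were in both HPC lists and no HSC list: 39.1 kb upstream (10.2 and 5.74), 24.1 kb downstream (7.73 and 7.01) and 62.2 kb downstream (8.27 and 7.38). A site 56.6 kb downstream of the Irf8 start was absent from wild-type HSC and had 8.32, 12.1, 13.0, 7.27 and 7.57 in the other lists. Within the gene, a site 7.73 kb from the start had 20.4, 19.9 and 11.2 in the first 3 lists and 16.5 and 14.7 in the 16-week lists, and no region in knockout HPC. Irf8 thus kept its start open in all lists while distal sites varied on both sides.

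**Figure D2:**
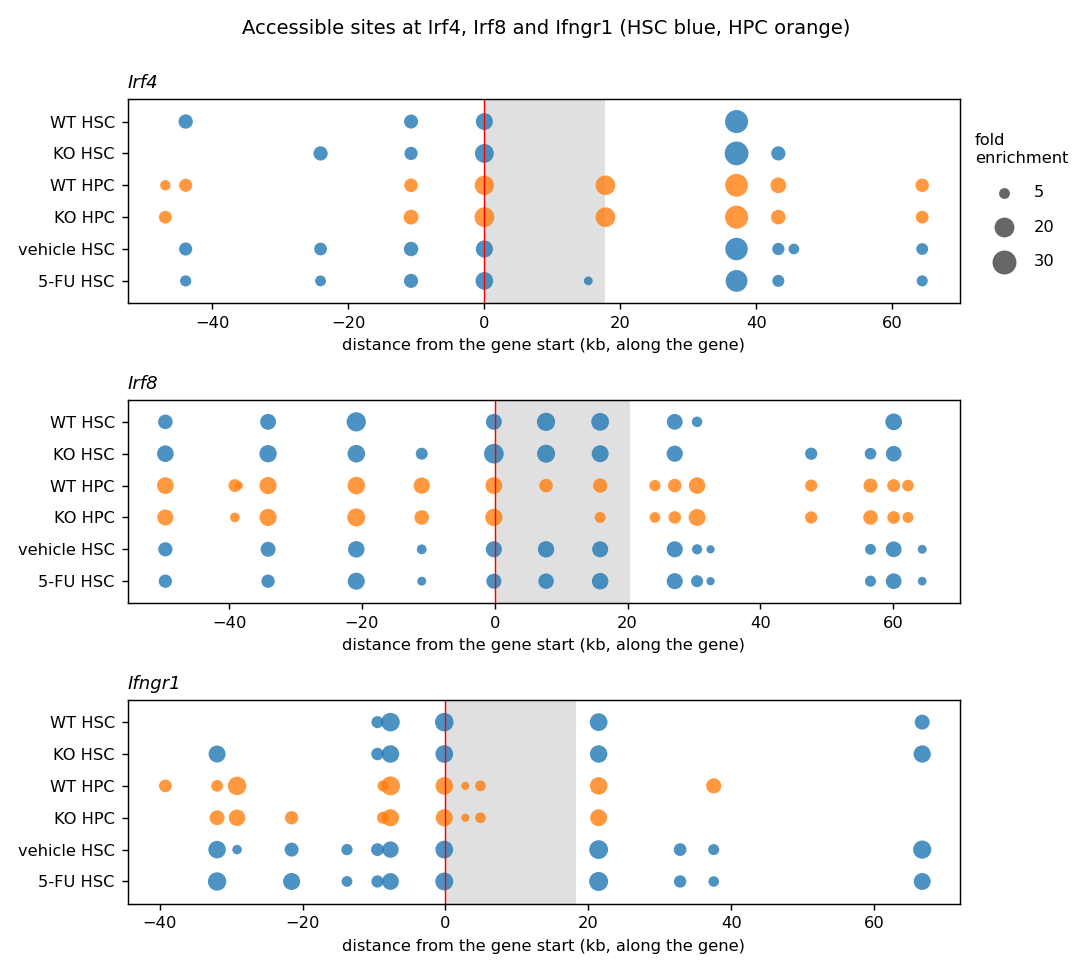
Each row of a panel is 1 peak list (WT, wild type; KO, knockout; 5-FU, 5-fluorouracil), each disc is a site at its distance in kb from the first annotated start (red line), disc area scales with fold enrichment, and the gene body is grey. A reader should see the HPC-only site at the end of Irf4, at 23.5 and 23.6, and the neighbouring HSC-only and HPC-only sites upstream of Ifngr1.

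The 15 antiviral genes held 140 sites, of which 44 were in all 6 lists (31.4%). The most were near Bst2, the tetherin that holds budding virus at the membrane, with 16 (7, 9, 13, 12, 15 and 13 by list), and Ifih1, a cytoplasmic sensor of double-stranded RNA, with 14 (6, 7, 8, 8, 14 and 14). Rsad2, known as viperin, held 13 (7, 8, 12, 10, 12 and 11), and Usp18 held 11 (3, 4, 6, 8, 8 and 8). At the start, Bst2 had 19.5, 22.1, 15.7, 17.0, 25.4 and 23.1, Ifih1 had 23.7, 24.7, 25.7, 24.3, 19.1 and 19.7, and Rsad2 had 19.7, 19.6, 19.7, 16.9, 19.7 and 19.6. Of the remaining antiviral starts, those of Oas2, Oasl1 and Oasl2 (oligoadenylate synthetase family) and of the GTPase genes Mx1 and Mx2 were open in all lists, with fold enrichments from 9.97 to 23.3. Mx1 and Mx2 are listed as transcribed pseudogenes in the RefSeq table.

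In the Ifit cluster the starts of Ifit1 and Ifit2 were open in all lists and neighbouring sites were not. A site 12.2 kb downstream of the Ifit2 start, within the gene body, had 11.9 in knockout HSC, 19.6 in vehicle HSC and 21.3 in 5-fluorouracil HSC, and no region in wild-type HSC or in either HPC list. That is the same set of lists that held the Ifit3 start. A site 15.0 kb downstream of the Ifit3 start, inside Ifit1bl1, was in all 4 HSC lists (9.32, 14.0, 15.1 and 11.4) and in neither HPC list, and so was one 15.8 kb downstream of Ifit1 (10.9, 18.0, 21.1 and 21.3). A site 24.2 kb downstream of Ifit3, inside its copy Ifit3b, had 9.24 in wild-type HSC, 19.3 in vehicle HSC and 17.6 in 5-fluorouracil HSC.

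**Figure D3:**
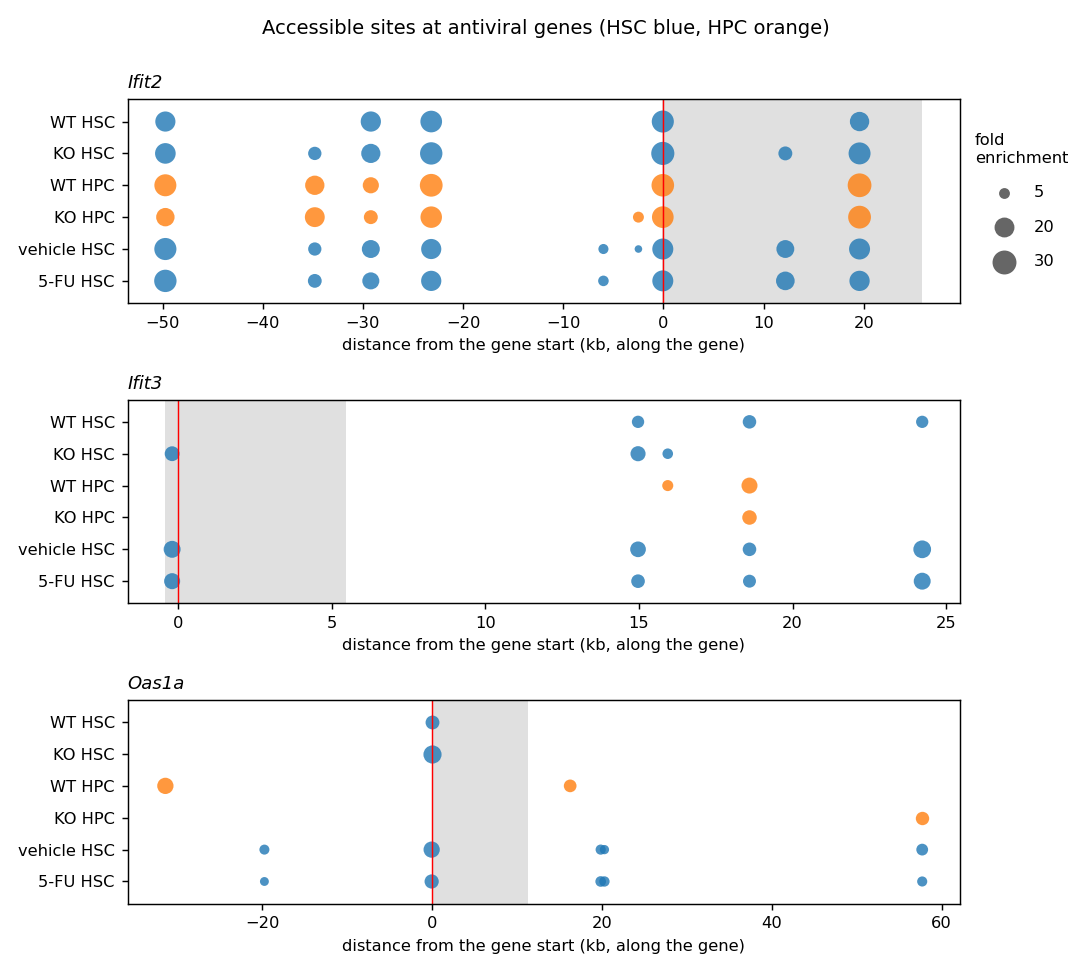
Each row of a panel is 1 peak list (WT, wild type; KO, knockout; 5-FU, 5-fluorouracil) and each disc a site at its distance in kb from the first annotated start (red line), with disc area for fold enrichment and the gene body in grey. A reader should see the Ifit2 start in every list, at 27.0 to 32.8, and no disc at the starts of Ifit3 and Oas1a in either HPC row.

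The 6 class I genes held 54 sites, 22 of them in all 6 lists (40.7%). Nlrc5, the transactivator of class I genes, held 21 (10, 11, 14, 10, 18 and 17 by list), Psmb9, a subunit of the immunoproteasome, 13 (7, 7, 11, 8, 11 and 9), B2m 11 (5, 6, 10, 9, 11 and 10) and the peptide transporter subunit Tap2 7 (3, 4, 5, 3, 7 and 7). The Nlrc5 start had 23.3, 22.6, 25.4, 26.9, 22.1 and 21.4, and the B2m start had 17.3, 19.5, 19.8, 21.8, 17.2 and 17.8. Tap1, the other transporter subunit, and Psmb9 start head to head and shared 1 region, with 15.0, 19.3, 17.9, 15.5, 17.6 and 16.4. The Tap2 start was weaker, at 9.99, 13.5, 8.72, 7.09, 8.07 and 8.74. Psmb8, another immunoproteasome subunit, had a start region in all lists, at 9.90 to 13.5, but no site of its own, since the strongest summit there lay nearer to Tap1.

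The 3 class II genes held 57 sites, 28 of them in all 6 lists (49.1%). Ciita held 21 (12, 12, 17, 15, 17 and 16 by list) and 10 of these were in all 6, although none lay within 1 kb of either gene end. Only these ends stood for its start, so a start inside the gene body would not have been read. Within its gene body, 2 sites were in both HPC lists only, at 11.2 and 11.2, and at 18.4 and 11.8. H2-Ab1, the beta chain of a class II molecule, held 19 sites (9, 10, 14, 11, 17 and 17), with start regions at 16.7, 18.1, 14.1, 13.9, 17.1 and 15.4. Cd74 held 17 (11, 11, 12, 13, 13 and 14), 10 of them in all 6.

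Over all members there were 423 sites, and 180 of them (42.6%) had the member as nearest protein-coding gene. The gene nearest to a site need not be its target, and 72 (17.0%) lay within 1 kb of the start of another gene only. Of the 423, 165 were in all 6 lists (39.0%, 95% Wilson interval 34.5 to 43.7), against 32.2% of 94178 sites genome-wide. Sites in 1 list only were 55 (13.0%, 10.1 to 16.5), against 18.1%. Both intervals leave out the genome-wide share, but they cover counting error only, and neighbouring sites are not independent.

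Sites that divided HSC from HPC were about as frequent near the members as elsewhere. In both HPC lists and no HSC list there were 19 (4.49%, 2.89 to 6.91), against 4.02%, led by Ifngr1 and Irf8 with 3 each. In all 4 HSC lists and no HPC list there were 10 (2.36%, 1.29 to 4.30), against 1.83%: 2 each at Ifngr1 and Irf2 and 1 each at Ifnar2, Irf9, Ifit1, Ifit3, Mx2 and Oas1a. Both 16-week lists alone held 36 (8.51%, 6.21 to 11.6), against 10.8%. Sites in all 4 wild-type lists and neither knockout list were 2 (0.473%, 0.130 to 1.71), at Irf3 and Irf4, against 0.847%. Sites in both knockout lists and no wild-type list were 0, which allows up to 0.900%, against 0.0287%.

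Knockout and wild-type HSC were compared to ask where loss of Kmt2c goes with gained or lost accessible regions. In knockout HSC 55 of 243 member regions were absent from wild-type HSC (22.6%, 17.8 to 28.3), against 25.9% of all regions. In the other direction 21 of 208 were absent from knockout HSC (10.1%, 6.70 to 14.9), against 9.99%. Both shares lay near the background, and the knockout list is the longer. Regions found in 1 list only were weak ones, near the members as genome-wide. Their median strength percentile, by −log10 p within the list, was 20.1 in knockout HSC and 12.3 in wild-type HSC. Shared member regions had 69.0 and 65.0. Over all regions these medians were 17.1 and 12.0 for those in 1 list only, and 62.7 and 54.9 for shared ones. By role, the knockout-only regions were 27 of 79 at antiviral genes, 12 of 73 at IRF genes and 8 of 31 at class I genes. Class II genes had 5 of 34 and receptors 3 of 26. The wild-type-only regions were, in the same order of roles, 7 of 58, 5 of 65, 4 of 28, 3 of 33 and 2 of 24. This split by role was not made at equal number of regions, so it carries the difference in list length.

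More regions in knockout than wild-type HSC were found near 24 members and fewer near 4, but at equal number, with both lists limited to the same number of strongest regions, more near 13 and fewer near 10. The net numbers were highest at Irf2 (4 regions in knockout only and 0 in wild type only), Isg15 (5 and 1), and Mx1 and Oasl2 (3 and 0 each). At equal number these became 3 and 0 at Irf2, 1 and 1 at Isg15, 2 and 0 at Mx1, and 1 and 0 at Oasl2. The strongest knockout-only region lay 15.6 kb from the nearer end of Mx1 inside Bace2, at 27.5, and was also in the HPC and 16-week lists. The next lay downstream of Irf2 (19.1) and inside Oas1c near Oas3 (18.7), both with a region in the 16-week lists too. Of the wild-type-only regions the strongest were inside Tmprss2 near Mx2 (14.7), inside Dusp22 near Irf4 (12.6) and inside Ifih1 (12.2). Each of these 6 regions stood in both 16-week wild-type lists, and those near Irf4 and inside Ifih1 stood in no knockout list.

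In HPC, 18 of 276 knockout member regions were absent from wild type (6.52%, 4.16 to 10.1), against 6.96% of all regions. Of 322 wild-type regions 64 were absent from the knockout (19.9%, 15.9 to 24.6), against 25.9%. The interval of the second share lies below the background. At equal number it does not: 27 of 270 were absent (10%, 6.96 to 14.2), against 13.5% of all regions. Fewer regions in the knockout were found near 26 members and more near 4, but at equal number fewer near 10 and more near 13. Nlrc5 had 0 regions in the knockout only and 5 in wild type only, Irf2 had 0 and 4, and Irf3 and Psmb9 had 1 and 5 each, while Usp18 had 2 and 0. At equal number these became 0 and 2 at Nlrc5, 1 and 1 at Irf2, 1 and 2 at Irf3, 1 and 1 at Psmb9, and 2 and 0 at Usp18.

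In both cell types the longer list thus had more regions. At equal number, regions in the knockout only and in wild type only were 31 and 24 in HSC and 32 and 27 in HPC, so the balance in HPC turned. The strongest region missing from knockout HPC was inside Prr12 near Irf3 (20.3), which the other lists all held, followed by one 31.4 kb upstream of Oas1a (16.3), in wild-type HPC alone, and one inside Slc16a12 near Ifit1 (15.2). The strongest found in the knockout and not in wild type were upstream of Oasl2 (14.4), in knockout HPC alone, near Mx2 (12.4) and at the lower end of Mx1 (12.3).

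Vehicle and 5-fluorouracil HSC were compared to ask what repeated chemotherapy leaves in stem cell chromatin. Of 342 member regions of 5-fluorouracil HSC, 13 were absent from vehicle (3.80%, 2.23 to 6.39), against 5.61%. Of 363 vehicle regions, 40 were absent from 5-fluorouracil HSC (11.0%, 8.20 to 14.7), against 16.2%, and this interval lies below the background. At equal number 22 of 342 (6.43%, 4.29 to 9.55) and 19 of 333 (5.71%, 3.68 to 8.74) were absent, against 8.93% and 9.41%, so the vehicle interval still lies below and the balance between the lists turned. None of the 13 and 40 regions found without that limit was above the median strength of its list. Their median strength percentiles were 9.39 and 10.3, against 7.34 and 11.2 over all regions in 1 of these lists only. Fewer regions in 5-fluorouracil HSC than in vehicle were found near 19 members and more near 3, but at equal number fewer near 10 and more near 13. The largest net number was at Irf2, with 1 region in 5-fluorouracil HSC only and 5 in vehicle only, which became 2 and 1 at equal number. The strongest drug-only regions were inside Nlrc5 (6.86), in this list alone, upstream of Irf1 (6.21) and inside Irf2 (5.87). The strongest vehicle-only regions were beyond the upper end of Nlrc5 (8.54) and inside Exoc2 near Irf4 (7.04), both in this list alone, and inside Slc16a12 near Ifit1 (6.64). The start counts were equal, at 35 of 36 members, and the start missing from both was that of Ciita.

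HSC and HPC were compared within each genotype. In wild type, 20 of 208 HSC member regions were absent from HPC (9.62%, 6.31 to 14.4), against 8.77%, and 134 of 322 HPC regions were absent from HSC (41.6%, 36.4 to 47.1), against 44.6%. In the knockout, 41 of 243 HSC regions were absent from HPC (16.9%, 12.7 to 22.1), against 21.9%, and 75 of 276 HPC regions were absent from HSC (27.2%, 22.3 to 32.7), against 27.8%. All 4 intervals hold the background. At equal number that of knockout HSC does not (18.5%, 14.1 to 23.9, against 24.5%). In this comparison some of the regions were strong: 30 of the 134 wild-type HPC regions absent from HSC were above the median strength of their list. The median strength percentile of the 134 was 26.8, near the 27.2 of all wild-type HPC regions absent from HSC.

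Near 31 members wild-type HPC had more regions than wild-type HSC, and near 2 (Irf9 and Ifit3) fewer. At equal number it had more near 14 and fewer near 11. Irf2 had 2 in HSC only and 12 in HPC only, and Irf8 and Bst2 had 0 and 7 each. At equal number Irf2 had 4 and 4, while Irf8 and Bst2 had 0 and 4 each, so that the excess in HPC was still counted at Irf8 and Bst2 and not at Irf2. In favour of HSC at equal number, Irf9 had 3 and 0, Mx2 3 and 1, and Ifit3, Oasl1 and Psmb9 2 and 0 each. In the knockout, Usp18 had 0 and 4 and B2m 1 and 5, and in favour of HSC Isg15 had 3 and 0 and Ifit3 3 and 1. At equal number these were 0 and 1 at Usp18, 1 and 5 at B2m, 4 and 0 at Isg15, and 3 and 1 at Ifit3.

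The strongest region of HSC absent from HPC was the same in both genotypes. A site inside Tmprss2, 41.6 kb beyond the upper end of Mx2 (chr16:97602131-97602659), had 17.0 and 29.3 in wild-type and knockout HSC and 18.7 and 12.8 in vehicle and 5-fluorouracil HSC, and no region in either HPC list. The upstream Ifnar2 site and the distal Ifngr1 site followed in wild type, and the Oas1a start and the Irf8 site within the gene in the knockout. That Irf8 site was present in wild-type HPC. Of regions in HPC absent from HSC, the strongest in wild type were inside Slc16a12 near Ifit1 (26.6), inside Il10rb near Ifnar2 (23.9) and inside Gtpbp3 near Bst2 (23.9). In the knockout they were the same Il10rb site (26.5), the site at the end of Irf4 (23.6) and one 8.48 kb upstream of Ifih1 (19.6).

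**Figure D4:**
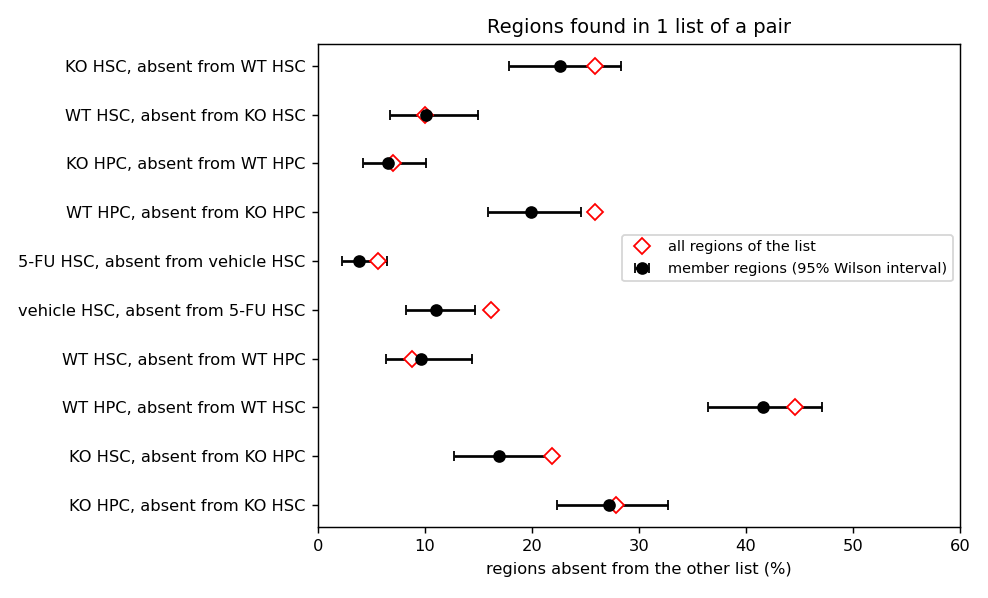
Points give the percent of the member regions of the first list that were absent from the second, with 95% Wilson intervals as bars, and red diamonds the same percent over all regions of the list (WT, wild type; KO, knockout; 5-FU, 5-fluorouracil). A reader should see that the diamond lies inside the bar except for WT HPC absent from KO HPC (19.9% against 25.9%) and vehicle HSC absent from 5-FU HSC (11.0% against 16.2%).

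A wider list of 53 genes of the same pathways was read at the start only. In all 6 lists 36 of the 53 held a start region (67.9%), against 48.1% of protein-coding genes. The counts by list were 43, 44, 47, 44, 53 and 52 of 53, against 52.2%, 55.7%, 59.7%, 54.9%, 65.5% and 63.6% of protein-coding genes. All 8 genes of signal transduction, among them Jak1, Tyk2 and Socs1, were open in all lists, as were 11 of 17 effectors, 8 of 9 class I genes, 5 of 8 class II genes and 4 of 11 sensors. Starts in both 16-week HSC lists and neither HPC list were those of the endosomal RNA sensor Tlr3 and the effectors Ifitm3, Ifi44, Parp14 and Igtp, 5 of 53 (9.43%), against the 4.14% given above. The limit of age and list length given there holds here too. Tlr3 had 11.3, 11.3, 12.0 and 11.3 in the 4 HSC lists, and Parp14 had 8.30, 6.81, 5.75 and 5.86. No gene of the 53 had a start in both HPC lists and no HSC list.

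The other starts that were missing from a list showed no single pattern. Ddx58 (6.70 to 7.33), Tapbp (4.99 to 5.68) and Tlr9 (3.31 to 12.5) lacked one in both 8-week HSC lists. Tlr7 lacked one there and in 5-fluorouracil HSC, with 14.9, 8.39 and 4.54 in the others. In 1 list alone a start was missing at Cgas and Cxcl10 (wild-type HSC), Rfxap (knockout HSC), Samhd1 (knockout HPC) and H2-DMa (wild-type HPC). Tbk1 lacked one in wild-type HSC and knockout HPC, Ikbke in both knockout lists, and Ctss in both 8-week HSC lists and knockout HPC. Among the genes with a start in both 16-week HSC lists and neither HPC list, 41 of 720 with a sequence held an ISRE core (5.69%). The share was 8.33% (6 of 72) for a start in all 4 HSC lists and neither HPC list. It was 6.90% (2 of 29) for the opposite of that pattern, a start in both HPC lists and no HSC list. A start in all 6 lists had 3.65%, and all genes had 3.94%.

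Markers of stem cells and of other cell types were read the same way, as values beside these results. Of 8 stem cell markers 5, 7, 8, 6, 8 and 8 had a start region. T and NK cell markers had at most 1 of 6 (Cd4), B cell markers at most 2 of 6, with none at Pax5, Cd79a or Ms4a1, and neutrophil markers at most 2 of 5. Dendritic cell markers had 1, 1, 3, 2, 2 and 2 of 6, and macrophage markers 1, 2, 2, 2, 1 and 1 of 6. Markers of granulocyte and monocyte progenitors had 1, 2, 2, 2, 4 and 2 of 6, and erythroid markers 3, 3, 3, 3, 4 and 3 of 6. Of the dendritic cell markers Itgax was open in all lists, Siglech in the HPC lists only (16.9 and 11.5), Clec9a in wild-type HPC (18.6) and both 16-week HSC lists (18.2 and 17.9), and Xcr1, Zbtb46 and Ccr9 in none. Of the macrophage markers Cd68 was open in all lists, Adgre1 in both HPC lists (27.5 and 25.1) and knockout HSC (11.9), and C1qa, C1qb, Vsig4 and Marco in none. Siglech alone among these has the pattern of the HPC-only sites. Those lay at Irf4, Irf8 and Ciita, and also at Ifngr1, Ifngr2, Irf2, Irf3, Oas3, Oasl2, Rsad2, Cd74 and H2-Ab1. Any part of Siglech in them was not tested.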

How the data were processed

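ATAC-seq peak lists of 6 groups (18 samples) were used. Per the submitters' processing notes, Bowtie2, MACS2 and the build mm10 (GRCm38) were used, with versions not given in the sources used here, and the labels do not say how samples were pooled. Each row of a deposited list holds the authors' score (not used), the authors' fold enrichment (a ratio over local background), a −log10 p and a deposited summit offset in bp. The smallest −log10 p was 2.00.

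Overlapping rows of a list were merged into regions. A region was a member region if it held a member summit, and shared if it overlapped a region of the other list by 1 bp or more. Regions of all lists merged into sites. Gene positions, names and promoters came from RefSeq on GRCm38.p6. The start by strand was used for the 27 members with a promoter entry, and both gene ends for the other 9 (Mx1, Mx2, Oas2, Usp18, Tap2, Nlrc5, Ciita, H2-Ab1 and Cd74). Distances are from the first annotated start, or from the nearer gene end where no strand was known. Motifs were searched in promoters only; the planned search around summits needs a genome and was not run. Strength percentiles order regions by −log10 p within a list, and start percentiles by fold enrichment.

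The design called for no test, since each group is 1 list; Wilson intervals (95%) treat regions as independent. The scripts were tested on simulated lists (Python 3.11.15, numpy 2.4.6, pandas 2.3.3, matplotlib 3.10.9). Members, roles and lists were chosen with earlier results of these data known. Values are given for up to 4 members per role with most sites, members lacking a start region in a list, and the 5 strongest starts by fold enrichment. They are also given, per comparison and direction, for the 3 strongest regions found in 1 list only with none within 1 kb. Up to 3 members per comparison and direction with the largest net number of regions (2 or more) were named. Ties for the last place were included between genotypes and left out in the other comparisons.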

Additional observations from a re-analysis of the deposited data

How the results depend on the processing

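Of 84 values under other settings, 74 moved by less than their own interval (start counts: by less than 1.5 times). Start counts of 31 to 35 of 36 could not rise by 1.5 times, so that limit says little for them. With −log10 p of 5 or more, an overlap of a larger part of the shorter region, a window of 10 kb, or starts within 500 bp or 2 kb, none moved. The first 2 of these settings hardly changed the regions counted, so they could hardly move a share. With −log10 p of 5 or more, knockout HSC went from 243 to 242 member regions. At equal number of strongest regions 7 of 16 values moved. With both lists limited to an equal number of strongest regions, the share absent from the other list became 14.4% for knockout HSC against wild type, 11.6% for knockout HPC against wild type and 10% for the reverse, 6.43% for 5-fluorouracil against vehicle HSC and 5.71% for the reverse, and 18.8% for wild-type HSC against wild-type HPC and 21.0% for the reverse. Over all regions these shares were 15.3%, 12.7%, 13.5%, 8.93%, 9.41%, 23.7% and 24.3%. With a region within 1 kb counted as shared, 15.2% of wild-type HPC member regions were absent from knockout HPC and 35.1% from wild-type HSC. With the nearest protein-coding gene only, 6.52% of wild-type HSC member regions were absent from knockout HSC. These settings use fewer regions or a wider match; no other cause was tested. Start counts ranged from 29 to 35 of 36. No paired analysis was possible because each group was 1 pooled list, and for the same reason leaving out a replicate was not run. Read depth is unknown, so a region absent from a list was not detectable there and need not be closed.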
